A study of Arabidopsis thaliana with 14 samples.

Results

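UDP-glycosyltransferases of Arabidopsis are described here across 5 groups of dark-grown seedlings. Members were all genes whose description in the deposited tables contains UDP-glucosyl transferase, UDP-glucosyltransferase or UDP-Glycosyltransferase superfamily, except AT5G54060, which the rule leaves out. The rule found 125 of the 24350 genes, and it used no measured value. Of these, 83 are described as superfamily proteins and 42 by a family number such as UDP-glucosyl transferase 73B5. Several glycosyltransferases whose descriptions are worded differently, among them DOGT1, UGT74E2, UGT73B4, IAGLU and UGT74F1, are therefore outside the set.

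RNA-Seq was performed on wild-type Col-0 and on bzr1-1D, both of ecotype Columbia, grown for 6 days in the dark. bzr1-1D is a dominant gain-of-function mutant of BZR1, a transcription factor of the brassinosteroid pathway. Every group, the controls included, was on medium with 2 µM PPZ (propiconazole), an inhibitor of brassinosteroid synthesis. Both genotypes were grown without further addition (mock) or with 1 µM DPI, with 3 samples in each of these 4 groups. A group of 2 bzr1-1D samples received H2O2 at 0.3 mM together with DPI. Where 5 values are listed for a gene, they stand in the order Col-0 mock, Col-0 DPI, and then bzr1-1D mock, DPI and DPI + H2O2. DPI (diphenyleneiodonium) inhibits NADPH oxidases and other flavoenzymes, and the study used it to lower H2O2. No Col-0 group received DPI with H2O2, and no group grew without PPZ.

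The values used were the group means that the authors deposited, in FPKM (fragments scaled by transcript length and library size, a unit inferred from the tables), so that no spread between replicates and no depth per sample was available, and no difference below was tested. The tables also carry probabilities from the authors' own comparisons, which were not used here. The decimals of the means were those of averages over 3 libraries for both Col-0 groups and for bzr1-1D with DPI. They were those of 2 libraries for bzr1-1D with DPI + H2O2 and also for bzr1-1D mock, for which the labels list 3. A gene was called higher or lower when the ratio of 2 group means, each with 1 FPKM added, was at least 2-fold. All folds and log2 values are on this scale, which understates the change of low genes. A value listed at 0.01 FPKM stands for 0 in these tables. The genotype labels were not checked from expression. bzr1-1D carries a point mutation in BZR1 and not a deletion, so that a loss of BZR1 reads could not serve as a check. Known target genes of BZR1 were not used for one.

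Plant UDP-glycosyltransferases move a sugar from a UDP-sugar onto a small acceptor molecule. Their acceptors include hormones, flavonoids, lignin precursors and foreign chemicals, and the sugar makes the product more soluble, ready for storage in the vacuole and usually less active. Several members act on brassinosteroids, auxin, cytokinins, abscisic acid or salicylic acid, and others are known for their induction by oxidative stress and by chemicals. Most share the PSPG box, a stretch near the C-terminal end that binds the sugar donor.

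A PSPG box pattern of 44 residues was found in the translated coding sequences of 89 of the 125 members. The other 36 hold enzymes of other kinds, among them GBSS1 (granule bound starch synthase), DGD1 (galactolipid synthesis), SETH2 (synthesis of the GPI anchor) and LEW3 (protein N-glycosylation). They also hold 12 members, UGT78D1 and UGT87A2 among them, that matched only a looser form of the core of the box. AT2G30150, the neighbour of UGT87A2, matched neither, so a miss alone does not mark an enzyme of another kind. The 132 coding bases of the box are shown for the 4 UGT73B members, on which the results below turn, with the 4 codons of its conserved core in capitals. They are from the RefSeq annotation of TAIR10.1.
UGT73B2: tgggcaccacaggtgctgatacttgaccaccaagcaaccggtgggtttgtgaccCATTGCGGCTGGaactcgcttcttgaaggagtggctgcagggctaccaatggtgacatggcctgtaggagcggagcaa
UGT73B3: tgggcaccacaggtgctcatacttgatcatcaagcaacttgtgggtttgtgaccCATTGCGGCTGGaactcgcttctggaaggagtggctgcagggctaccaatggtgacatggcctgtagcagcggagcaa
UGT73B1: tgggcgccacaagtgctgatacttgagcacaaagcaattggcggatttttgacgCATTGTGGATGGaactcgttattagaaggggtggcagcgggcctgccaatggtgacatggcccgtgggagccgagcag
UGT73B5: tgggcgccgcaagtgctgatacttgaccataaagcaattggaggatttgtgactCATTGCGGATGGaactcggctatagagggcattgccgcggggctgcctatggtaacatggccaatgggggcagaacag
Of these 132 bases, UGT73B2 shared 125 with UGT73B3, 107 with UGT73B1 and 101 with UGT73B5. Over the aligned coding sequence, UGT73B2 was 89.4% identical to UGT73B3 and 75.2% identical to UGT73B1. How reads that match more than 1 member were counted is not given in the sources used here, so the values of close neighbours such as UGT73B2 and UGT73B3 may not be fully separate.

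Tandem copies were frequent. With gaps of at most 10000 bases, 21 clusters held 63 of the members, and the largest cluster had 7, the UGT76E group on chromosome 3. Chromosomes 1 to 5 carried 32, 25, 28, 15 and 25 members. The gene span of 36 members overlapped another annotated gene, in 33 cases on the opposite strand, and whether the libraries kept the strand is not given in the sources used here.

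The family's summed level in Col-0 was 1159 FPKM in mock and 1054 FPKM with DPI. In bzr1-1D it was 1274 in mock, 1545 with DPI and 1779 with DPI + H2O2. As a share of all FPKM this was 0.166%, 0.144%, 0.183%, 0.218% and 0.253% in the same order. In bzr1-1D the sum was thus higher with DPI and highest with H2O2 added, while in Col-0 it was lower with DPI. The 10 highest members of each bzr1-1D group summed to 481 FPKM in mock, 725 with DPI and 838 with H2O2 added, whereas the median member was at 3.77, 3.74 and 4.94 FPKM, and the median log2 ratio of members for DPI in bzr1-1D was -0.06. Of the 125 members, 121 were listed in all 5 groups, 89 had a mean over the groups of at least 1 FPKM, and 36 had a mean of at least 10 FPKM. The 10 highest members of each group made up between 36.3% and 47.1% of the sum.

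**Figure D1:**
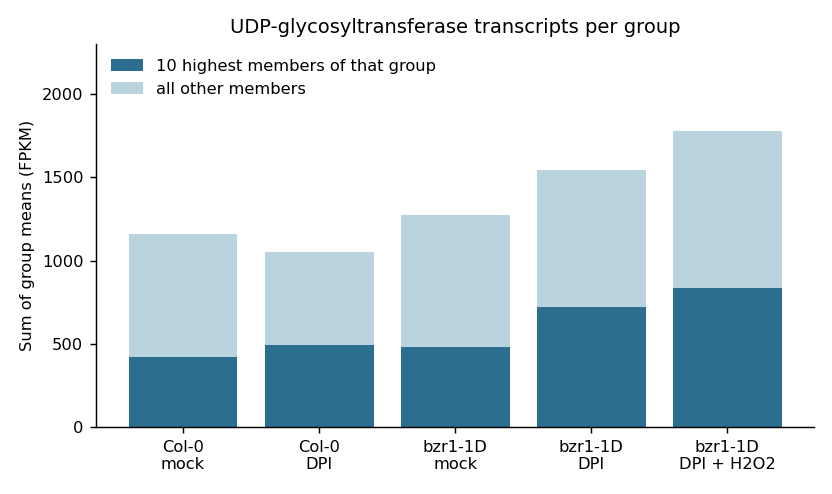
Summed group means of the 125 UDP-glycosyltransferases in FPKM (vertical axis) for the 5 groups, with the 10 highest members of each group in the dark part of the bar. The sum was 1054 FPKM in Col-0 DPI and 1779 FPKM in bzr1-1D DPI + H2O2, the lowest and the highest of the 5 bars.

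UGT88A1 was the highest member over all groups, at 130 FPKM in mock and 192 with DPI in Col-0, and 47.8 in mock, 93.2 with DPI and 39.9 with DPI + H2O2 in bzr1-1D. It led the family in both Col-0 groups. In bzr1-1D the first place went to UGT72E1, a glucosyltransferase of lignin precursors, at 98.4 FPKM in mock and 131 FPKM with DPI, and to UGT73B2 at 161 FPKM once H2O2 was added. The other members among the first 10 by mean were GT72B1, UGT74F2, UGT85A2, UGT72E2, UGT75B1, UGT74D1 and UGT73B3, with means over the 5 groups from 34.0 to 60.0 FPKM.

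Most calls were for DPI in bzr1-1D and for bzr1-1D against Col-0 under DPI. With DPI in bzr1-1D, 14 of 123 members were higher (11.4%, against 4.14% of all genes) and 7 were lower (5.69%, against 7.38%). With DPI in Col-0, only GBSS1 was higher of 123 members (0.813%, against 0.865%), and 3 were lower (2.44%, against 2.90%). Comparing bzr1-1D with Col-0, 17 of 124 were higher under DPI (13.7%, against 5.93%) and 3 lower (2.42%, against 2.12%). In the mock condition 2 of 122 were higher (1.64%, against 7.02%) and 5 lower (4.10%, against 4.18%). Adding H2O2 to DPI in bzr1-1D left 2 of 123 higher (1.63%, against 2.87%) and 2 lower (1.63%, against 0.411%). Set against bzr1-1D mock, 13 of 123 were higher in bzr1-1D DPI + H2O2 (10.6%, against 3.63%) and 0 lower (against 2.35%). Members without values in both groups were left out of each count. These comparisons share groups, so that their counts are not independent of each other.

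Part of these counts depends on the level of the median gene, which was not 0. Over the genes averaging 1 FPKM or more it was 0.12 on the log2 scale for bzr1-1D against Col-0 in mock, 0.17 under DPI, -0.24 for DPI in Col-0, -0.20 for DPI in bzr1-1D, 0.25 for added H2O2, and 0.04 for DPI + H2O2 against mock. Relative to the median gene, 17 members were higher and 4 lower with DPI in bzr1-1D (6.53% and 4.89% of all genes). For bzr1-1D against Col-0 under DPI, the numbers were 14 and 4 (3.97% and 3.05%). Adding H2O2 then gave 0 higher and 4 lower (0.989% and 1.18%).

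**Figure D2:**
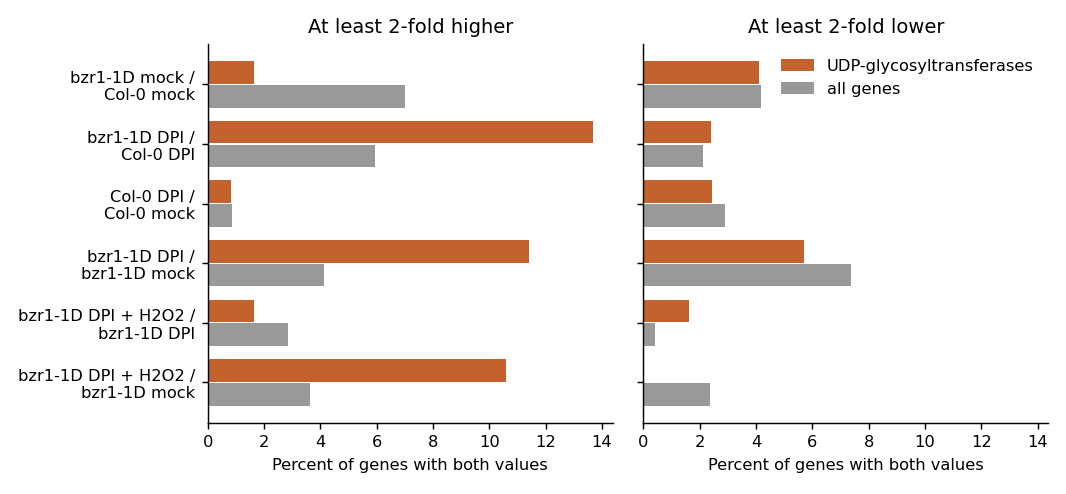
Percent of members (orange) and of all genes (grey) with both values that were at least 2-fold higher (left) or lower (right) in each of the 6 comparisons. Members stood at 13.7% and 11.4% in the higher panel for bzr1-1D against Col-0 under DPI and for DPI in bzr1-1D, where all genes stood at 5.93% and 4.14%.

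The DPI response itself was set against each other in the 2 genotypes. For 12 of 121 members the log2 response in bzr1-1D exceeded that in Col-0 by at least 1 (9.92%, against 3.79% of all genes), and 0 fell below it by as much (against 3.03%). The differences were 1.99 for UGT73B2, 1.89 for AT2G36970, 1.86 for UGT73B5, 1.56 for UGT75B1 and 1.45 for UGT76E11. UGT76B1 had the lowest difference, -0.81, of the members averaging 1 FPKM or more. The median over members was 0.18, against 0.04 over all genes and 0.06 over the genes averaging 1 FPKM or more. Summed levels of seed storage genes (CRA1, CRU3 and SESA1) were 19.7 FPKM in Col-0 DPI and between 218 and 325 FPKM in the other 4 groups, and the part of this in the difference between the genotypes was not tested.

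**Figure D3:**
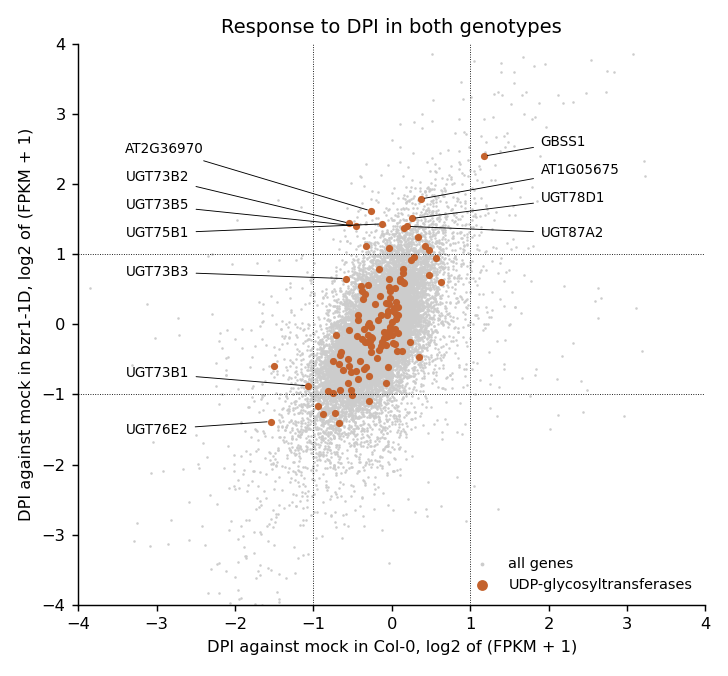
Log2 ratio of DPI to mock, from group means with 1 FPKM added, in Col-0 (horizontal) and bzr1-1D (vertical) for 121 members (orange) and all genes (grey, of which 20 lie outside the axes). Dotted lines mark 2-fold. UGT73B2, UGT73B5 and UGT75B1 lie above the upper line and to the left of 0, while GBSS1 is past the line in both genotypes. Relative to the median gene, the Col-0 values of UGT73B2, UGT73B5 and UGT75B1 were -0.31, -0.22 and 0.11.

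UGT73B members glycosylate flavonols and other phenolics and are known for induction by pathogens and oxidative stress. UGT73B2 (chromosome 4, 16345258 to 16347434 in TAIR10, reverse strand), annotated as a flavonol 7-O-glucosyltransferase, was at 27.1 FPKM in mock and 18.3 with DPI in Col-0, and 38.9 in mock, 108 with DPI and 161 with DPI + H2O2 in bzr1-1D. DPI was thus accompanied by a lower level in Col-0 (log2 ratio of -0.31 relative to the median gene) and by a 2.72-fold higher one in bzr1-1D. Under DPI bzr1-1D stood 5.62-fold above Col-0, the highest ratio of any member there. UGT73B5, on chromosome 2, had the same order, with 11.6, 8.19, 15.0, 41.5 and 66.5 FPKM in the 5 groups. It overlaps UGT73B4 on the same strand, and the coding sequences of the pair were 92.3% identical. UGT73B3 stood at 21.8, 14.2, 27.4, 43.6 and 62.9 FPKM, and it was called for bzr1-1D against Col-0 under DPI (2.94-fold) but not for DPI in bzr1-1D (1.57-fold).

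UGT73B1, the third gene of the chromosome 4 cluster, differed from its neighbours. Its levels were 29.3, 13.5, 34.8, 18.5 and 25.4 FPKM, lower with DPI in both genotypes, with log2 ratios of -1.07 in Col-0 and -0.88 in bzr1-1D. Relative to the median gene these ratios were -0.83 and -0.68. Of the 4 UGT73B members, 3 were higher in bzr1-1D than in Col-0 under DPI, 2 were higher with DPI in bzr1-1D, and 3 were higher in bzr1-1D DPI + H2O2 than in bzr1-1D mock. The shares over all genes were 5.93%, 4.14% and 3.63%. Median log2 ratios of the 4 in these comparisons were 1.88, 1.03 and 1.59, where the median gene was at 0.17, -0.20 and 0.04.

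**Figure D4:**
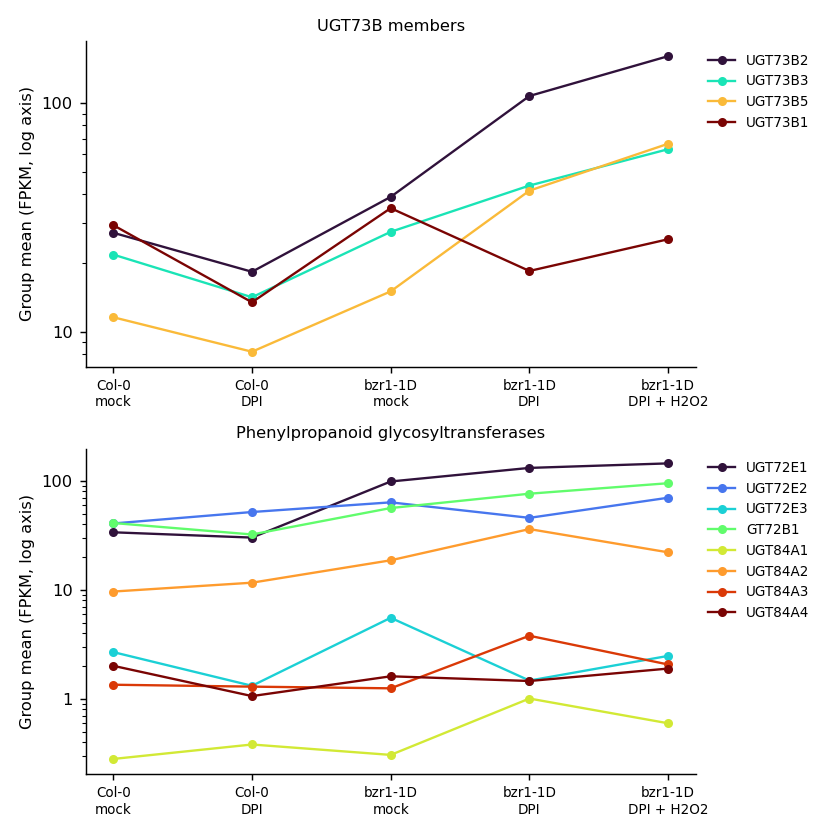
Group means in FPKM (logarithmic vertical axis) of the 4 UGT73B members (upper) and of 8 glycosyltransferases of phenylpropanoids (lower) in the 5 groups, where lines only join the points of 1 gene. UGT73B2 reached 161 FPKM and UGT73B1 25.4 FPKM in bzr1-1D DPI + H2O2, and UGT72E1 was above 98 FPKM in all bzr1-1D groups and below 34 FPKM in both Col-0 groups.

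Other members highest with H2O2 have known acceptors of several kinds. UGT75B1, which acts on p-aminobenzoate and can act on auxin, and whose protein binds the callose synthase complex at the cell plate, was at 20.3 FPKM in mock and 18.5 with DPI in Col-0, and 28.9 in mock, 79.7 with DPI and 120 with DPI + H2O2 in bzr1-1D. An antisense gene, AT1G05562, overlaps it. Its tandem neighbour UGT75B2, with a coding sequence 87.4% identical, was at most 0.987 FPKM in any group. UGT87A2, known for its effect on flowering time, had 12.8, 14.8, 17.1, 46.7 and 55.8 FPKM. The neighbour AT2G30150, 80.6% identical to it, had 19.1, 18.7, 10.9, 17.6 and 11.9 FPKM.

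UGT73C6 glucosylates flavonols and brassinosteroids, and was at 1.99, 3.01, 2.63, 6.89 and 8.39 FPKM in the 5 groups. With DPI in bzr1-1D it was 2.18-fold higher, and 1.97-fold higher than in Col-0 with DPI, just under the threshold. DOGT1, which inactivates brassinosteroids by the same reaction and is not a member by the wording of its description, is 91.4% identical to UGT73C6 and stood at 5.81, 16.9, 3.28, 50.7 and 67.1 FPKM, so that reads of the pair could have been exchanged. Of the 2 other 73C genes with a name, UGT73C1 was listed at 0.01 FPKM in both mock groups and was at 1.05 FPKM in bzr1-1D DPI + H2O2. The other, UGT73C7, was at 1.13, 2.70 and 3.76 FPKM in the bzr1-1D groups.

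Among members with no name in the annotation, AT1G05675 had 0.03 and 0.33 FPKM in the Col-0 groups and 0.77, 5.10 and 8.38 FPKM in the bzr1-1D groups. It lies beside UGT74E2, a glucosyltransferase of indole-3-butyric acid, whose coding sequence is 89.5% identical and whose level was 6.13, 28.5, 1.75, 86.5 and 137 FPKM. AT2G36970 had 0.28, 0.06, 0.34, 3.10 and 3.71 FPKM, and AT5G59070 had 1.33, 1.60, 1.67, 5.89 and 6.86 FPKM. UGT76E11, at 1.98, 1.36, 0.39, 2.00 and 2.53 FPKM, was higher with DPI in bzr1-1D only relative to its low mock level there.

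Upstream sequences are shown for those members that were higher with DPI in bzr1-1D, had a still higher mean with H2O2, and whose 250 bases before the RefSeq gene start overlap no other gene. They are written 5′ to 3′ in the direction of the gene, from TAIR10.1, with capitals for matches on either strand to TGACG, the core of the as-1 element bound by TGA factors.
UGT73B2 (chr4:16347435-16347684, minus strand): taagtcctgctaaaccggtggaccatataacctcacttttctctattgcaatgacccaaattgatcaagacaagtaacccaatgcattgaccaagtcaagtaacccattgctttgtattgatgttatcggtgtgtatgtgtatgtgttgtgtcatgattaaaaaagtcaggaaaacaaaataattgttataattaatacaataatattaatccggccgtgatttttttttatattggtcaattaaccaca
UGT73B5 (chr2:6758180-6758429, plus strand): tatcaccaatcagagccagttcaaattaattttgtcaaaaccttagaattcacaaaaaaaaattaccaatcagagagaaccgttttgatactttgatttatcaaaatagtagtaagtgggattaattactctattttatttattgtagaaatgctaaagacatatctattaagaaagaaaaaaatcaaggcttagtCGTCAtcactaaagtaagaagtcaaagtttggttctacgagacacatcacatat
UGT87A2 (chr2:12871734-12871983, plus strand): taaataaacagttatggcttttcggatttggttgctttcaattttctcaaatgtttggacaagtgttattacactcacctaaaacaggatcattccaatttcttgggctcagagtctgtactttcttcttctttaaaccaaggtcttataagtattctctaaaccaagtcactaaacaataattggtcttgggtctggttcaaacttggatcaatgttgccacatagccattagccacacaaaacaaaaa
AT1G05675 (chr1:1702750-1702999, minus strand): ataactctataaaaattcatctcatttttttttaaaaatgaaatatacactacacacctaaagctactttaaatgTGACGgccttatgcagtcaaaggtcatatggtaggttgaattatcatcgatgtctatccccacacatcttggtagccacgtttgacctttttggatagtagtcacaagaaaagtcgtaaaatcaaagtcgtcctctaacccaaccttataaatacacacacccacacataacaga
AT2G36970 (chr2:15528627-15528876, plus strand): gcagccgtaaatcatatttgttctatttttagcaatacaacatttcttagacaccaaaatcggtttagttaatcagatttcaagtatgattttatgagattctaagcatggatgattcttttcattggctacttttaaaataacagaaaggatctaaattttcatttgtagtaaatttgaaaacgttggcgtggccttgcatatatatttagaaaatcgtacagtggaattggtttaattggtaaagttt
Of all 14 members higher with DPI in bzr1-1D, 4 held TGACG in this window (28.6%), against 24 of the 125 members (19.2%), 19.0% of 24144 genes and 20.5% of the 941 genes higher with DPI in bzr1-1D for which a window could be read. The other motifs searched on both strands were the G-box CACGTG, and CGTGTG and CGTGCG, the forms of the element known to bind BZR1. CGTGTG and CACGTG can overlap each other. None of these 3 was in the windows of the 14 members, while 7.00%, 5.51% and 1.66% of all genes held them. Among 14 windows such counts are small, and they are given as a description.

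In 4 other members that act on flavonoids the mean was lower with H2O2 than with DPI alone, unlike in UGT73B2 and UGT73C6, which also act on flavonols. UGT78D2, which adds glucose to anthocyanidins and flavonols at the 3 position, was at 5.79 FPKM in mock and 7.59 with DPI in Col-0, and 2.39 in mock, 7.06 with DPI and 2.66 with DPI + H2O2 in bzr1-1D. It was thus lowest in bzr1-1D mock, near the Col-0 levels with DPI, and back near the mock level with H2O2. UGT78D1, a flavonol 3-O-rhamnosyltransferase, had 5.51, 6.79, 2.32, 8.45 and 4.94 FPKM, and AT4G14090, an anthocyanidin 5-O-glucosyltransferase, had 1.74, 2.81, 1.25, 3.69 and 1.57 FPKM. AT1G06000, a flavonol-7-O-rhamnosyltransferase, had 17.2, 19.0, 18.3, 28.2 and 15.1 FPKM.

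Of these 4 genes, 3 were higher with DPI in bzr1-1D and 0 in Col-0 (4.14% and 0.865% of all genes), with median log2 ratios of 1.16 and 0.30. Their median log2 ratio for added H2O2 was -0.87, and 1 (UGT78D2) was called lower (0.411% of all genes). Relative to the median gene, UGT78D2, AT4G14090 and AT1G06000 were at -1.39, -1.12 and -1.11, past 2-fold (1.18% of all genes), and UGT78D1 was at -0.92. The bzr1-1D DPI group enters both comparisons. GBSS1 was also highest in bzr1-1D DPI, with 1.78, 5.29, 2.52, 17.6 and 10.1 FPKM. UGT84A3, which esterifies hydroxycinnamic acids, had 1.34, 1.29, 1.25, 3.78 and 2.06 FPKM. Summed levels of the photosynthetic genes CAB1, RBCS1A and RBCS1B also were low in bzr1-1D mock (8191 FPKM), higher in bzr1-1D DPI (29415) and lower again with H2O2 (13264), against 30130 and 65944 FPKM in Col-0 without and with DPI. Their part in the flavonoid values was not tested, and in such bulk samples fewer cells of a type and less RNA per cell cannot be told apart.

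**Figure D5:**
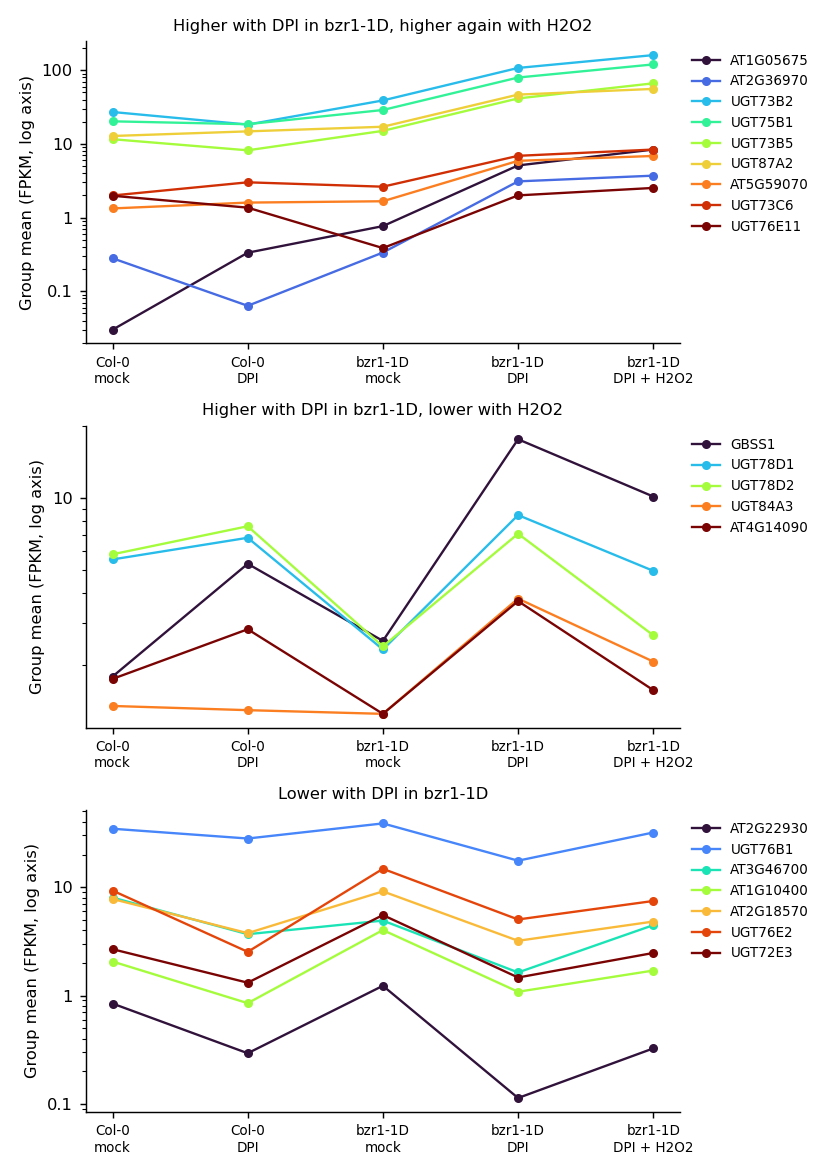
Group means in FPKM (logarithmic vertical axis) of the 21 members called for DPI in bzr1-1D, in 3 panels by direction with DPI and with H2O2, where lines only join the points of 1 gene. The upper panel has 9 members, highest in bzr1-1D DPI + H2O2, the middle panel 5, lower with H2O2 than with DPI alone, and the lower panel 7 that were lower with DPI.

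For the 14 members higher with DPI in bzr1-1D, the level with H2O2 was thus higher than with DPI alone in 9 (64.3%) and lower in 5, while of all 995 genes higher with DPI it was higher in 27.2%. Their median log2 ratio was 1.40 for DPI against mock, 0.22 for H2O2 added to DPI (-0.31 over the 995 genes) and 1.61 for DPI + H2O2 against mock, while the same genes had a median of 0.18 for DPI in Col-0. The added H2O2 comparison shares its DPI group with the choice of these genes. The median gene was at 0.25 for added H2O2. Relative to it, UGT73B2, UGT73B5, UGT75B1 and AT1G05675 were at 0.33, 0.42, 0.34 and 0.37. The other members of the 9 were between -0.06 and 0.01.

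The 7 members lower with DPI in bzr1-1D also had lower means with DPI in Col-0, as did 92.8% of the 1771 genes lower with DPI in bzr1-1D that had values in Col-0. Their medians were -1.27 and -0.73 on the log2 scale, with a shift of the median gene of -0.20 and -0.24. UGT76E2 was at 9.30 FPKM in mock and 2.53 with DPI in Col-0, and 14.8 in mock, 5.03 with DPI and 7.46 with DPI + H2O2 in bzr1-1D, and was called in both genotypes. UGT72E3, a glucosyltransferase of coniferyl and sinapyl alcohol, had 2.68, 1.31, 5.53, 1.47 and 2.47 FPKM. UGT76B1, which conjugates isoleucic acid and takes part in the balance of salicylic acid and jasmonate defence, was at 34.6, 28.1, 38.8, 17.6 and 31.9 FPKM. The other 4 were AT2G18570, AT1G10400, AT3G46700 and AT2G22930, none with a mean in any group above 9.15 FPKM. With H2O2 added, no member of the 7 was still called lower than in bzr1-1D mock (against 28.4% of all genes lower with DPI), and AT3G46700 (4.92 FPKM in mock, 1.63 with DPI and 4.46 with H2O2) was called higher than with DPI alone (14.3% of the 7, against 26.7%). The median log2 ratio of the 7 was 0.49 for added H2O2, against 0.74 over the 1772 genes lower with DPI. For DPI + H2O2 against mock it was -0.80, against -0.70, so that the 7 stayed below mock without reaching the threshold. Relative to the median gene, 4 of the 7 stayed lower with DPI, while UGT76B1, AT3G46700 and AT2G22930 were at -0.90, -0.97 and -0.80.

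In Col-0, DPI left 3 members lower, which were UGT76E2, UGT73B1 and AT5G05900 (2.27 FPKM in mock and 0.16 with DPI). Their levels in bzr1-1D without and with DPI were 14.8 and 5.03, 34.8 and 18.5, and 0.58 and 0.04 FPKM. The only other member called for added H2O2 in bzr1-1D besides UGT88A1, UGT78D2 and AT3G46700 was AT1G19710, with 2.55 FPKM under DPI and 6.47 FPKM with H2O2. Its log2 ratio of 1.07, and that of AT3G46700 of 1.05, were 0.83 and 0.81 relative to the median gene.

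Without DPI, the genotypes differed in 7 members. UGT72E1, a glucosyltransferase of coniferyl and sinapyl aldehydes, was at 33.6 FPKM in the wild type and 98.4 FPKM in the mutant on mock medium, and at 30.1 and 131 FPKM under DPI. Its ratio between the genotypes was 2.87-fold in mock and 4.25-fold under DPI. AT3G46690 was the other higher member, at 1.79 and 4.66 FPKM, with a log2 ratio of 1.02 that was 0.90 relative to the median gene. UGT88A1 was 0.374-fold of Col-0 in mock and 0.489-fold under DPI, and UGT85A1, an O-glucosyltransferase of the cytokinin trans-zeatin, was 0.288-fold and 0.404-fold, with 6.39, 6.60, 1.13, 2.07 and 1.32 FPKM in the 5 groups. Like the photosynthetic genes above, UGT88A1 had a higher mean with DPI in both genotypes and a lower one with H2O2 added, and their part in its values was not tested. UGT76E11, UGT78D2 and AT5G05900 completed the 5 lower members, with UGT78D2 at the threshold (0.498-fold) and UGT78D1 just outside it (0.509-fold). Relative to the median gene UGT78D1 had a log2 ratio of -1.10 and was past the threshold.

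The 8 glycosyltransferases of phenylpropanoids had higher means in bzr1-1D for several members. Under DPI, 4 of 8 were higher than in Col-0 (5.93% of all genes), which were UGT72E1, UGT84A2, GT72B1 and UGT84A3. The median log2 ratio over the 8 was 0.80, against 0.17 for the median gene. Relative to the median gene UGT84A3 had 0.89 and was under 2-fold. UGT84A2, which makes sinapoyl glucose, was at 9.62 FPKM in mock and 11.6 with DPI in Col-0, and 18.6 in mock, 36.0 with DPI and 22.0 with DPI + H2O2 in bzr1-1D. GT72B1, which glucosylates monolignols and chlorinated pollutants, had 40.9, 32.1, 56.1, 76.0 and 94.9 FPKM. In mock 1 of 8 was higher (7.02% of all genes). With DPI in bzr1-1D 1 was higher and 1 lower (4.14% and 7.38% of all genes). The summed level of the 8 was 131 and 129 FPKM in the Col-0 groups and 245, 296 and 338 FPKM in the bzr1-1D groups, and the wall genes of xylem IRX1, IRX3 and CESA4 summed to between 10.6 and 26.9 FPKM. Each of these xylem genes was lowest in Col-0 DPI, and under DPI their log2 ratios of bzr1-1D to Col-0 were 0.83, 0.74 and 0.67. Their part in the values of the 8 was not tested.

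UGT72E2, which makes coniferin and is the closest relative of UGT72E3, had 40.5, 51.6, 63.3, 45.6 and 69.8 FPKM. The pair was 89.5% identical in coding sequence, and UGT72E1 was 73.7% identical to UGT72E2. The 3 UGT72E genes thus each had a different order of groups, and UGT72E2 was called in no comparison.

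Other hormones are also acceptors of members. Of the 4 auxin members with values, UGT75B1 alone was called with DPI in bzr1-1D, while UGT74D1 was at 49.0, 37.1, 35.8, 52.6 and 49.3 FPKM and UGT84B1 was at most 0.04 FPKM. Among the 3 cytokinin members, UGT85A1 was called between the genotypes, and the N-glucosyltransferases UGT76C1 and UGT76C2 were highest in Col-0 mock, at 10.3 and 20.0 FPKM. UGT76C2 was lowest in bzr1-1D DPI + H2O2, at 10.3 FPKM. No member for abscisic acid was called, with UGT71C5 between 18.9 and 43.6 FPKM.

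UGT74F2, which makes the glucose ester of salicylic acid, had 48.1, 38.9, 47.7, 70.5 and 92.2 FPKM, and its ratio of bzr1-1D DPI + H2O2 to mock was 1.92-fold. The sterol glucosyltransferases SGT and UGT80B1 were between 9.51 and 19.2 and between 5.07 and 7.32 FPKM, and UGT74B1, which acts in glucosinolate synthesis, was between 8.64 and 20.9 FPKM. None of these 4 was called in any comparison. HYR1, which glucosylates the growth inhibitor hypostatin, was 2.35-fold higher in bzr1-1D than in Col-0 under DPI, with 2.48, 3.84, 5.95, 10.4 and 6.91 FPKM.

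Genes of related pathways are given as context, from lists chosen with earlier results of these data known. Of all genes, 4.14% were higher and 7.38% lower with DPI in bzr1-1D, and 0.865% and 2.90% with DPI in Col-0. Under DPI, 5.93% of all genes were higher in bzr1-1D than in Col-0. Of 8 genes of the chemical stress response, which were chosen as known targets of oxidants and xenobiotics, 6 were higher with DPI in bzr1-1D and 4 with DPI in Col-0, where CYP81D11 was lower, and all 8 were higher in bzr1-1D than in Col-0 under DPI. GSTU24, a glutathione transferase, had 26.7, 28.7, 46.9, 345 and 544 FPKM in the 5 groups, and like UGT73B2 was highest with H2O2 added. Of 4 genes that inactivate brassinosteroids by other reactions (BAS1, CYP72C1, BEN1 and BAT1), 0 were higher and 2 lower with DPI in bzr1-1D, and 1 was lower in Col-0. Of 8 genes that conjugate or oxidise auxin, 1 was higher and 3 were lower with DPI in bzr1-1D, and 1 was higher and 1 lower in Col-0.

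Within clusters, neighbours often differed. In the UGT76E cluster of chromosome 3, AT3G46690 was higher in bzr1-1D in both conditions, AT3G46700 was lower with DPI in bzr1-1D, and UGT76E11 was higher with DPI there. The UGT85A cluster of 5 genes held UGT85A1, lower in bzr1-1D, and UGT85A2, which was at 42.5, 32.3, 48.2, 67.4 and 90.0 FPKM and was higher in bzr1-1D under DPI, with a log2 ratio of 1.04 that was 0.87 relative to the median gene. Coding sequences of the 42 neighbouring pairs were between 62.8% and 95.9% identical, the highest being AT4G27560 with AT4G27570, both below 1 FPKM in every group with a value.

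The label gives hypocotyl as the tissue and seedling as the stage. Root markers were nevertheless present in all groups, with summed levels of between 69.4 and 177 FPKM for 4 root genes. The 3 genes of the shoot epidermis (ATML1, KCS10 and KCS6) summed to between 291 and 667 FPKM. Of the root genes, those of root hairs had a higher mean with DPI in Col-0 and a lower one in bzr1-1D, the reverse of UGT73B2. PRP3 was at 16.4, 69.3, 29.1, 9.76 and 14.9 FPKM, and the log2 response to DPI in bzr1-1D less that in Col-0 was -3.50 for PRP3, -2.27 for EXPA7 and -0.96 for SHV2, but -0.04 for CASP1, a gene of the endodermis. The phloem gene SUC2 was at 104, 84.3, 59.0, 51.7 and 37.4 FPKM. Their part in the differences above was not tested.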

How the data were processed

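RNA-Seq libraries were sequenced on the BGISEQ-500 platform. Per the labels and methods, the authors mapped reads to TAIR10 with HISAT and Bowtie2 (versions not given in the sources used here). The authors deposited mean FPKM per group, with 0 set to 0.01, and 6 of these tables served here. One broken off in mid-row and filtered copies were left out, as were the authors' log2 ratios, direction calls and NOISeq probabilities. Columns headed ERD were read as bzr1-1D from the table names. Depth per sample is unknown.

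Log2 ratios of means plus 1 FPKM were computed with pandas 2.3.3 (Python 3.11.15) for all genes with both values and called at 2-fold. Only the calling of ratios was tested on simulated means, with large changes in well-expressed genes. Changes near the threshold, changes in low genes and the other steps were not simulated. All 125 members lay inside their RefSeq genes, and coding sequences were aligned with Biopython 1.88. Members and lists were chosen with earlier results of these data known. Genes were named if they were in a role list, among the 10 highest means, or among the 5 highest or 5 lowest of a comparison with a mean of at least 1 FPKM. Others were named after their values were seen. Alternatives were pseudocounts of 0.1 and 5 FPKM, a minimum mean of 1 FPKM, 1.5-fold and centring on the median gene. For the difference in DPI response they were chosen after seeing the data.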

Additional observations from a re-analysis of the deposited data

Results flagged for a closer look

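UGT73B3 moved in opposite directions with DPI in the 2 genotypes, by at least 1.5-fold each way. Its mean went from 21.8 to 14.2 FPKM in Col-0 and from 27.4 to 43.6 FPKM in bzr1-1D, and the log2 responses differed by 1.24. Relative to the median gene the responses were -0.35 and 0.85, so that the one in Col-0 was under 1.5-fold. The difference was not tested, since each group is 1 mean. Its coding sequence is 89.4% identical to that of UGT73B2, which had a larger difference of 1.99.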

How the results depend on the processing

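The numbers of members called, higher and lower together, were 7 for bzr1-1D against Col-0 in mock, 20 under DPI, 4 for DPI in Col-0, 21 for DPI in bzr1-1D, 4 for added H2O2, 13 for DPI + H2O2 against mock and 12 for the difference in DPI response. In this order a pseudocount of 0.1 FPKM gave 19, 41, 18, 42, 7, 25 and 27, a pseudocount of 5 FPKM gave 2, 10, 0, 5, 1, 7 and 5, and a threshold of 1.5-fold gave 24, 40, 19, 51, 21, 34 and 31. A minimum mean of 1 FPKM gave 6, 20, 3, 20, 4, 12 and 12, and centring on the median gene gave 7, 18, 3, 21, 4, 12 and 12, all within 1.5 times the first numbers. No called log2 ratio of a named gene changed its sign under these alternatives, but for ratios of 2 groups this could not have come out otherwise. A pseudocount added to both means, a minimum mean or a lower threshold cannot turn the sign of such a ratio. Centring moved them by at most 0.25, less than the log2 ratio of 1 at which a gene was called. No paired analysis was possible because only group means were used, and leaving out single libraries was not run for the same reason. Differences between groups cannot be set against the spread of replicates, low members are limited by the added 1 FPKM, and members that share sequence or overlap another gene cannot be fully separated.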
